A study of Homo sapiens with 4 samples.

Results

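The metallothionein genes MT1E, MT1F, MT1G, MT1M, MT1X and MT2A, their zinc sensor MTF1 and the zinc exporter SLC30A1 were followed in ovarian cancer cells that carried a hairpin against the transcription factor gene FOXK2. They were taken by symbol from a list of 8 genes, and all 8 were among the 56655 gene symbols counted in each library. OVCAR5, an established human ovarian cancer cell line labelled as high grade serous, was grown in RPMI medium with fetal bovine serum at passage 4-6. The cells had been stably transduced with lentiviral particles and selected with puromycin, and they carried either a control hairpin RNA (shCtrl, 2 libraries) or a hairpin RNA against FOXK2 (shFOXK2, 2 libraries), both in cells of the same line with no further allele or agent given in the labels. The labels give no clone and no further hairpin, so a difference between the groups cannot be told apart from an effect of the construct or of the selected cells. Polyadenylated RNA was sequenced in single-end reads of 50 bases, and the design text calls the 2 libraries of a group biological duplicates.

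Metallothioneins are very small proteins in which a large part of the residues are cysteines, and they hold zinc, copper and cadmium in clusters of metal and thiolate. The zinc finger factor MTF1 senses free zinc, moves to the nucleus and binds metal response elements in the promoters of metallothionein genes and of SLC30A1, which carries zinc out of the cell at the plasma membrane. The human MT1 genes and MT2A lie side by side on chromosome 16 and arose by duplication, so their transcripts are much alike.

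The coding sequences are printed because their likeness is a part of what decides how well short reads can be told apart between these genes. For each gene the 3-exon transcript whose coding sequence is as long as that of MT2A, 183 bases without the stop codon, was taken from the GENCODE v44 annotation of build hg38. They run 5′ to 3′, and capitals mark the bases at which a gene differs from MT2A.
MT2A: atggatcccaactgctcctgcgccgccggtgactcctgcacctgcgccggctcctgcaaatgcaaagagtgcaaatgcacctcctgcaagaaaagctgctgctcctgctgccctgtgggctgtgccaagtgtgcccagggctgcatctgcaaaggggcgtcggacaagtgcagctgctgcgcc
MT1E: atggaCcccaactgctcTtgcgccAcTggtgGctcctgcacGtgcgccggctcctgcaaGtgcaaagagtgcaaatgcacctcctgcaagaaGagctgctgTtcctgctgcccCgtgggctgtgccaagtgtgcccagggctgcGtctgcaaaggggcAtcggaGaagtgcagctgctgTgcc
MT1X: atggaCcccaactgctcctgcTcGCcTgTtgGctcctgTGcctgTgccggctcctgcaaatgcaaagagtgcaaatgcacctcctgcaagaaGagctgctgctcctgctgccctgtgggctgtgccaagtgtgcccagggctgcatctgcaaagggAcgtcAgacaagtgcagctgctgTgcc
MT1F: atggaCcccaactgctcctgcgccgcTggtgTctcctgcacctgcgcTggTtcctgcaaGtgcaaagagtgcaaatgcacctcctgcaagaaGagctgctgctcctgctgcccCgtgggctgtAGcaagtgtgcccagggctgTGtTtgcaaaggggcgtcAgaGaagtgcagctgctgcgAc
MT1G: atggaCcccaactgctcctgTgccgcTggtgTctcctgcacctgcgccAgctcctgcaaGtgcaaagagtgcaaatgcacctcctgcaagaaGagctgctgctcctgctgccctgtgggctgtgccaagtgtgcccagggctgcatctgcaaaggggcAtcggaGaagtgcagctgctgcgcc
MT1M: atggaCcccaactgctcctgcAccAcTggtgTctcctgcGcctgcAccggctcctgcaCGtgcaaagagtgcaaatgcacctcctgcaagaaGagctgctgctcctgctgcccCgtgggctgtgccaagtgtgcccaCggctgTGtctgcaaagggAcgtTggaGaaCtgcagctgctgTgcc
The gene closest to MT2A was MT1G, with 9 differing bases and 95.1% identity, and the farthest was MT1M, with 19 differing bases and 89.6% identity. MT1E and MT1X each differed from MT2A at 14 bases, and MT1F differed at 16. The pair least alike among all pairs of the 6 was MT1F and MT1X, which differed at 21 bases and were 88.5% identical.

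How much of each transcript can be assigned to its gene from a read of 50 bases was measured by comparing every 50-base window of the transcript, on both strands, with all annotated transcripts and the hg38 chromosomes. In MT1E, 620 of 655 windows (94.7%) were found nowhere else, and in MT1F 353 of 376 (93.9%). In MT2A the share was 88.9%, in MT1M 81.4% and in MT1G 78.7%. MT1X stood lowest, with 166 of 355 windows (46.8%). Of the MT1X windows, 117 were shared with ENSG00000259827, a gene annotated on the same strand that overlaps MT1X, and 47 with MT1G. MT1F and MT1X shared only 4 windows with each other. Reads from the windows shared with ENSG00000259827 come from the same genomic place, and they would be lost as ambiguous only if the annotation used for counting, which was not stated, held that gene. With that gene ignored, 283 of the 355 MT1X windows (79.7%) were unique. The remaining shared windows match several places, and HTSeq usually leaves such reads out. The windows of MTF1 were unique in 98.6% of positions and those of SLC30A1 in 100%.

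**Figure D1:**
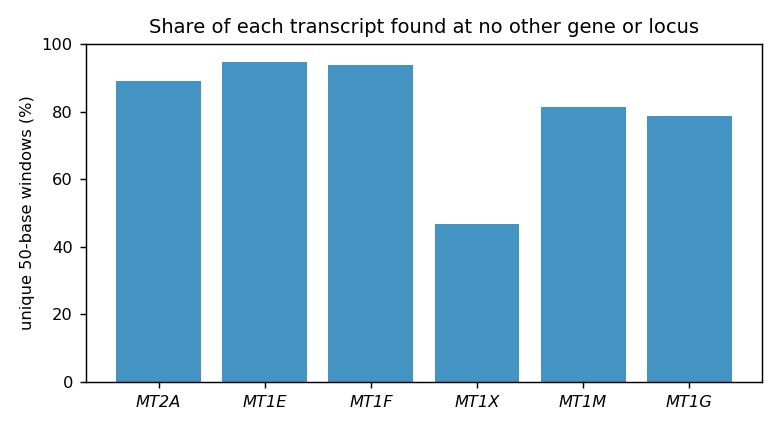
Percentage of 50-base windows of each metallothionein transcript found at no other annotated gene or genomic position. The bars stand between 78.7% and 94.7% for all but MT1X, which stands at 46.8%, or at 79.7% with the gene that overlaps it on the same strand ignored.

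The promoters are printed because they carry the metal response elements through which MTF1 acts. The 250 bases upstream of the start site were read from the RefSeq promoter table of build GRCh38.p14, which held 4 of the 8 genes: MT2A, MT1X, SLC30A1 and MTF1. They are given on the strand of the gene, and capitals mark the core of the metal response element, written TGCACNC or TGCGCNC, on either strand.
MT2A, chr16:56608334-56608583, plus strand: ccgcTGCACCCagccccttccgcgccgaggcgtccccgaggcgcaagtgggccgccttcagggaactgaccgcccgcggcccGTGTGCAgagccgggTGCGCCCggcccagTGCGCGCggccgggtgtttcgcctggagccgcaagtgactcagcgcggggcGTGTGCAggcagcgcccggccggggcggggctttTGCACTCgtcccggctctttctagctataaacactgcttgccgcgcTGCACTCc
MT1X, chr16:56682220-56682469, plus strand: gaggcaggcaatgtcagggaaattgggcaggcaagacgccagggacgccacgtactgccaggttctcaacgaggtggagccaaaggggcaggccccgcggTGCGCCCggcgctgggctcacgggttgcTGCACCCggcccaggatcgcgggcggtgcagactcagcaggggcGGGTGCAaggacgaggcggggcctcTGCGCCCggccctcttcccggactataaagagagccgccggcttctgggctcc
SLC30A1, chr1:211579162-211579411, minus strand: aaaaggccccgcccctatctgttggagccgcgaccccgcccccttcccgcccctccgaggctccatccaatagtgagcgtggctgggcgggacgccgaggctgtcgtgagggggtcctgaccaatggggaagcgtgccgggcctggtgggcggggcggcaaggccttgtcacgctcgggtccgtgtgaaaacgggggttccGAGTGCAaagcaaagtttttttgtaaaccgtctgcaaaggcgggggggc
The MT2A promoter held 7 such cores, the nearest beginning 8 bases before the start site, and 0.0313% of the 35116 promoters in the table held as many. The MT1X promoter held 4, a number reached by 0.37% of promoters. The SLC30A1 promoter held 1, a number reached by 24.8% of promoters, and the MTF1 promoter (chr1:37859593-37859842, minus strand) held 0. A TATAAA stretch began 29 bases before the start site in MT2A and 30 bases before it in MT1X, and 10.7% of promoters held that word. The forkhead word TGTTTAC, searched on both strands, was in none of these 4 windows and in 2.98% of all promoters.

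In the annotation of hg38 the 6 metallothionein genes lie in a cluster on chromosome 16. MT2A lies at chr16:56608584-56609497, MT1E at chr16:56625475-56627112, MT1M at chr16:56632659-56633981, MT1F at chr16:56657731-56660698 and MT1X at chr16:56682470-56684196, all on the plus strand. MT1G, at chr16:56666730-56668065, lies on the minus strand between MT1F and MT1X. MTF1 (chr1:37809574-37859592) and SLC30A1 (chr1:211571568-211579161) are both on the minus strand of chromosome 1. All 8 are annotated as protein-coding. MTF1 overlaps ENSG00000235673 on the opposite strand, whose reads could be mixed with its own because the strand setting of the counting was not stated.

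The libraries held between 14284005 and 21950873 counts, so that 3 counts were worth between 0.134 and 0.211 CPM (counts scaled to a common library total with TMM factors). Of 16417 genes that passed a filter on low counts, 48.4% differed between shFOXK2 and shCtrl at an adjusted p under 0.05 in the quasi-likelihood test of edgeR. FOXK2 itself was counted 1796 and 1499 times in the shCtrl libraries against 1086 and 1084 times with shFOXK2, which was 80.5 and 93.4 CPM against 76.4 and 59.6 CPM. Its level was lower in each shFOXK2 library than in either shCtrl library, yet the log2 fold change of −0.36 (SE 0.25) missed the threshold (edgeR adjusted p = 0.257). The 6 epithelial markers EPCAM, KRT7, KRT8, KRT18, KRT19 and CDH1 were above 1 CPM on average in both groups. CDH1 was only just so in shFOXK2, at 0.914 and 1.32 CPM against 20.6 and 16.2 CPM in shCtrl. It fell by 4.02 on the log2 scale (edgeR adjusted p = 5.12e-06). Of 3 markers of serous ovarian tumours, PAX8 stood at 15.7 and 20.9 CPM and MUC16 at 17.8 and 9.03 CPM in shCtrl, while WT1 had at most 2 counts in any library. In shFOXK2, PAX8 stood at 10.97 and 8.90 CPM (edgeR adjusted p = 0.0263) and MUC16 at 0 and 0.44 CPM (edgeR adjusted p = 2.45e-05), both lower. Of 6 markers of other cells, 3 were above 1 CPM on average in each group. The summed level of all 6 was between 39.1 and 41.4 CPM in shCtrl and between 23.7 and 25.9 CPM in shFOXK2. The leukocyte marker CD14 stood at 17.4 and 22.3 CPM in shCtrl and at 8.72 and 9.23 CPM in shFOXK2 (edgeR adjusted p = 0.00566). The endothelial marker PECAM1 stood at 6.90 and 5.61 CPM against 0.633 and 1.59 CPM (edgeR adjusted p = 0.000536). COL1A1 stood at 14.5 and 13.4 CPM against 15.9 and 12.6 CPM (edgeR adjusted p = 0.951). The leukocyte marker PTPRC had 0 counts in 3 libraries and 3 counts in shFOXK2 replicate 1, and COL3A1 and LUM had at most 5 counts in any library. The part of these differences in the results on metallothioneins was not tested.

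The comparison asked whether the metallothionein genes differ in RNA level between cells with the FOXK2 hairpin and control cells. They did not all move the same way. MT1X rose to 1.79 times its shCtrl level, MT1F fell to 0.449 times its shCtrl level, and the abundant MT2A and MT1E, as well as MT1M, MTF1 and SLC30A1, did not pass the test. Of the 8 genes, 7 passed the filter on low counts and 2 of those 7 passed the test, 1 in each direction, against 48.4% of all tested genes. In all genes tested, 25.7% were called higher and 22.7% lower in shFOXK2. The median log2 fold change of the 7 was −0.23 and that of all tested genes 0.04. Because RNA was taken from whole cultures, fewer cells that express a gene and less RNA per cell cannot be told apart.

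**Figure D2:**
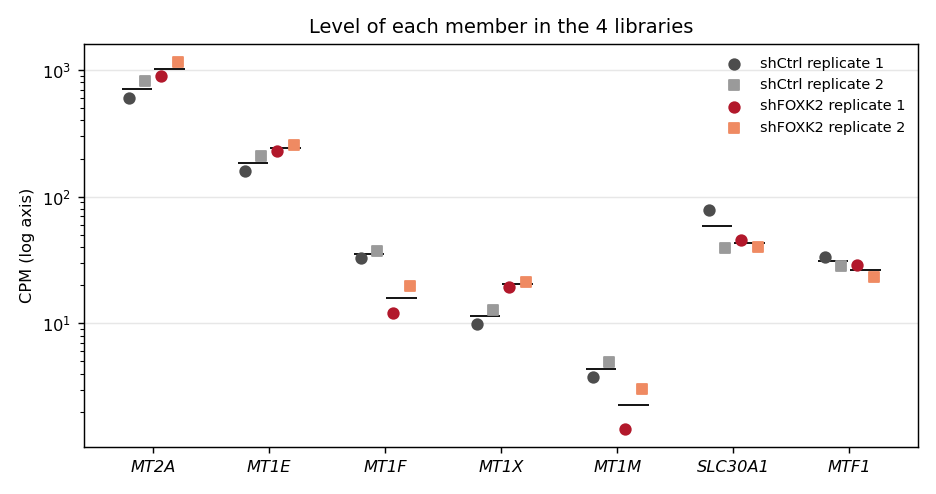
Level in CPM (log axis) of the 7 genes that passed the filter in each of the 4 libraries, with a short line at each group's mean. The MT1F points of shFOXK2 (12.02 and 19.6 CPM) lie under those of shCtrl (33.0 and 37.4 CPM), the MT1X points lie the other way, and the points of MTF1 and SLC30A1 overlap.

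MT2A, the most abundant of the family, had 13480 and 13051 counts in shCtrl against 12647 and 20956 in shFOXK2. On the CPM scale these were 604 and 813 against 889 and 1151. Each shFOXK2 library was above each shCtrl library, with a gap narrower than the spread within either group. The mean went from 709 ± 148 CPM (SD, n = 2) to 1020 ± 185 CPM. Its log2 fold change was 0.53 (SE 0.25) and missed the threshold (edgeR adjusted p = 0.104). It passed without shCtrl replicate 2 (log2 fold change 0.68, edgeR adjusted p = 0.0482). Its mean log2 CPM was above that of 99.4% of tested genes.

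MT1E, the next most abundant, had 3578 and 3353 counts in shCtrl against 3279 and 4678 in shFOXK2, or 160 and 209 CPM against 231 and 257 CPM. The groups did not overlap, though shCtrl replicate 2 stood closer to shFOXK2 replicate 1 than to its own duplicate. Its log2 fold change was 0.40 (SE 0.24) and missed the threshold (edgeR adjusted p = 0.178).

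MT1X, a further member of the ubiquitous MT1 group, had 221 and 205 counts in shCtrl against 274 and 388 in shFOXK2. In CPM these were 9.91 and 12.8 against 19.3 and 21.3. Both shFOXK2 libraries were above both shCtrl libraries, and the gap between the groups was larger than the range within either. The rise from 11.3 ± 2.03 to 20.3 ± 1.45 CPM (SD, n = 2) came to 0.84 on the log2 scale (SE 0.29) with an edgeR adjusted p of 0.027. The call was lost without shCtrl replicate 1 (log2 fold change 0.63, edgeR adjusted p = 0.132), without shFOXK2 replicate 2 (0.74, edgeR adjusted p = 0.107), with no filter on low counts (0.74, edgeR adjusted p = 0.0742) and with a smooth offset on transcript length (0.33, edgeR adjusted p = 0.326).

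MT1F had 737 and 601 counts in shCtrl against 171 and 356 in shFOXK2, or 33.0 and 37.4 CPM against 12.02 and 19.6 CPM. The groups lay clearly apart, and the larger spread was within shFOXK2. The level fell from 35.2 ± 3.11 to 15.8 ± 5.33 CPM (SD, n = 2), which is −1.15 on the log2 scale (SE 0.30, edgeR adjusted p = 0.00585). Its size was larger than that of 65.8% of tested genes. Without shFOXK2 replicate 1, which held the lower value, the change was −0.87 and just missed the threshold (edgeR adjusted p = 0.0553).

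MT1M, the least abundant of the tested metallothioneins, had 84 and 80 counts in shCtrl against 21 and 55 in shFOXK2, or 3.77 and 4.98 CPM against 1.48 and 3.02 CPM. Each shFOXK2 library was under each shCtrl library. The log2 fold change of −0.93 (SE 0.41) missed the threshold (edgeR adjusted p = 0.0728), and it passed without shFOXK2 replicate 2 (−1.59, edgeR adjusted p = 0.00245), without shCtrl replicate 1 (−1.17, edgeR adjusted p = 0.0498), with no filter (−1.03, edgeR adjusted p = 0.0273) and with the length offset (−1.47, edgeR adjusted p = 0.0025). MT1G had 0, 1, 0 and 1 counts in the 4 libraries, which is under the floor of 3 counts, so no difference was detectable.

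Of the 7 tested genes, 5 had groups that did not overlap in CPM, all of them metallothioneins, and 75.4% of all tested genes had such groups. The levels per kilobase of transcript in shCtrl ran in the order MT2A (1767 ± 368 CPM per kilobase, SD, n = 2), MT1E (262 ± 48.7), MT1F (82.9 ± 7.33), MT1X (28.1 ± 5.01), MT1M (10.99 ± 2.16), SLC30A1 (10.0 ± 4.68) and MTF1 (3.88 ± 0.428). MT1M and SLC30A1 did not differ beyond their spread in that order. In shFOXK2, MT1X (50.2 ± 3.59 CPM per kilobase) stood above MT1F (37.2 ± 12.5), though by about the SD of MT1F. Per kilobase of unique windows, MT1F stood at 99.8 ± 8.82 and MT1X at 68.3 ± 12.2 in shCtrl, and at 44.7 ± 15.1 and 122 ± 8.74 in shFOXK2. With the gene that overlaps MT1X ignored, MT1X stood at 40.1 ± 7.16 in shCtrl and at 71.7 ± 5.13 in shFOXK2.

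Ratios between metallothionein genes within a library need no scaling between libraries. The ratio of MT1X to MT1F counts was 0.300 and 0.341 in shCtrl and 1.60 and 1.09 in shFOXK2. MT1F thus had the larger count in each shCtrl library and MT1X in each shFOXK2 library. The mean log2 ratio went from −1.65 ± 0.13 (SD, n = 2) to 0.40 ± 0.39, a 4.13-fold difference, far larger than the spread in either group. With 2 libraries in a group an exact two-sided permutation test cannot go below p = 0.333, which is the value it gave. This pair was singled out after its values were seen, as the called rise and the called fall. The difference between both genes' log2 fold changes was 2.00 in the fit, and between 1.76 and 2.32 when each library was left out.

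The ratio of MT2A to MT1F was 18.3 and 21.7 in shCtrl and 74.0 and 58.9 in shFOXK2. It too was higher in both shFOXK2 libraries. The ratio of MT2A to MT1E was 3.77 and 3.89 against 3.86 and 4.48, so the groups overlapped. The log2 ratio of MT1M to MT1F was −3.13 and −2.91 against −3.03 and −2.69, and these groups overlapped as well. Of the 10 pairs of tested metallothioneins, those 2 overlapped and the other 8 did not. These pairs are formed from 5 genes and are not independent of each other. Most of the 8 set MT1F or MT1M, both lower in shFOXK2, against MT2A, MT1E or MT1X, all higher. Such pairs repeat the directions of the single genes. Of all single tested genes, 75.4% had groups that did not overlap in CPM, and no such share was computed over pairs of genes.

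**Figure D3:**
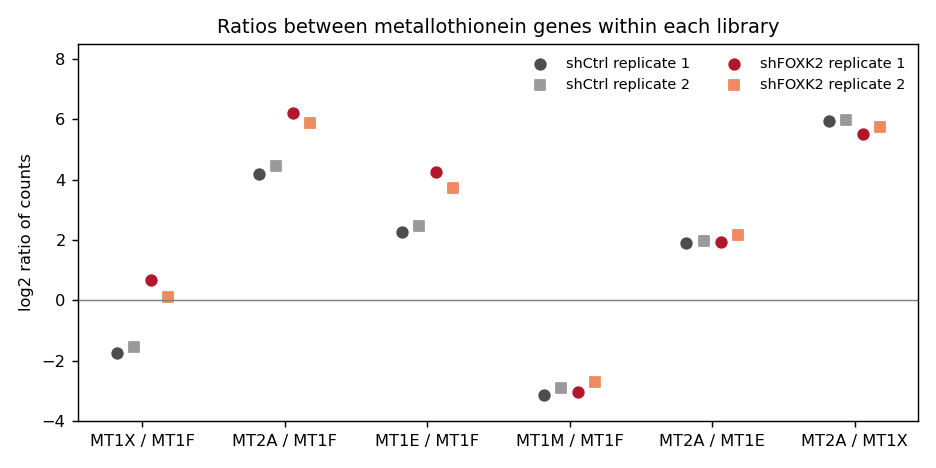
Log2 ratio of the counts of 2 metallothionein genes within each library. The shFOXK2 points lie above the shCtrl points for MT1X, MT2A and MT1E over MT1F, while the points of MT1M over MT1F and of MT2A over MT1E overlap.

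The 6 metallothionein genes took 0.0825% and 0.103% of all counts in shCtrl and 0.115% and 0.149% in shFOXK2. Every shFOXK2 library was above every shCtrl library, with means of 0.0927% ± 0.0145 and 0.132% ± 0.0243 (SD, n = 2). MT2A made up between 74.5% and 79.3% of these counts in the 4 libraries, and MT1E between 17.7% and 20.0%, so the sum rests mainly on those 2 genes, neither of which passed the test alone. MT1F gave 4.07% and 3.48% of the metallothionein counts in shCtrl and 1.04% and 1.35% in shFOXK2. The Wilson 95% interval of the lowest shCtrl share was 3.213% to 3.759% and that of the highest shFOXK2 share 1.215% to 1.493%, so that these did not overlap in counting error. MT1X gave 1.22% and 1.19% against 1.67% and 1.47%.

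MTF1, the zinc sensor that drives these genes, had 741 and 456 counts in shCtrl against 414 and 425 in shFOXK2. On the CPM scale these were 33.2 and 28.4 against 29.1 and 23.4, and the groups overlapped. The log2 fold change was −0.23 (SE 0.27, edgeR adjusted p = 0.49), and it turned to 0.08 with an offset on the A content of transcripts.

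SLC30A1, which exports zinc and is itself a target of MTF1, had 1752 and 635 counts in shCtrl against 649 and 728 in shFOXK2, or 78.5 and 39.6 CPM against 45.6 and 39.99 CPM. The value of shCtrl replicate 1 stood alone above the other 3 libraries. The log2 fold change of −0.47 (SE 0.31) missed the threshold (edgeR adjusted p = 0.233). It was 0.08 without shCtrl replicate 1 (edgeR adjusted p = 0.852) and −0.95 without shCtrl replicate 2 (edgeR adjusted p = 0.00594), so the direction rests on 1 library. With an offset on GC content it was −0.77 and passed (edgeR adjusted p = 0.0179).

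Offsets that remove a smooth trend with GC content, A content or length of the transcript moved the abundant metallothioneins up or down. MT2A and MT1E passed with the GC offset (log2 fold changes 0.85 and 0.77, edgeR adjusted p = 0.0131 and 0.00766) and with the A-content offset (0.89 and 0.77, edgeR adjusted p = 0.0114 and 0.00777). With the length offset MT2A was at 0.01 and MT1E at 0.12, not past the threshold (edgeR adjusted p = 0.982 and 0.685). Over the 13887 genes that these offsets cover, the median shift of a gene's log2 fold change was 0.19, 0.27 and 0.10 for GC content, A content and length. MT1F stayed lower with an edgeR adjusted p under 0.05 under all 3.

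**Figure D4:**
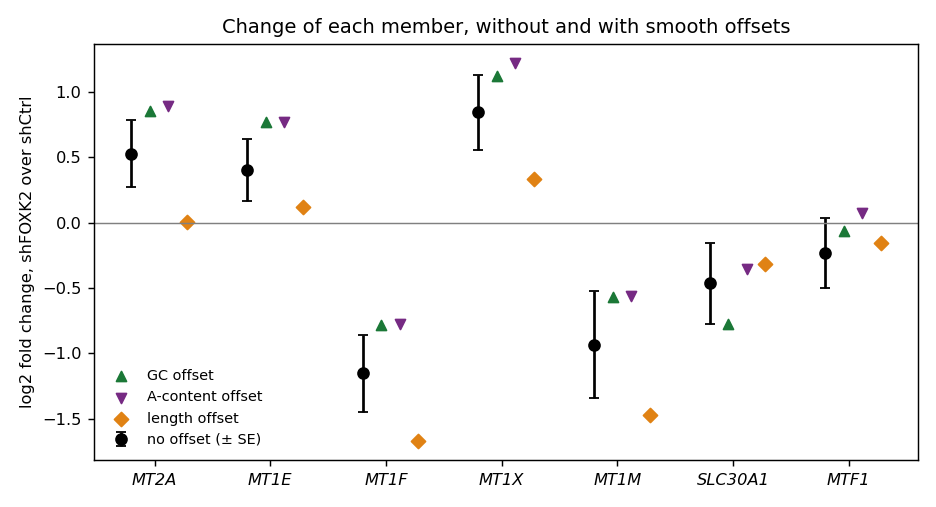
Log2 fold change, shFOXK2 over shCtrl, of the 7 tested genes without offset (black, ± SE) and with offsets on GC content, A content or transcript length. MT1F stays under 0 and MT1X above 0 in each, MT2A runs from 0.01 to 0.89, and MTF1 crosses 0.

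Other metallothionein genes gave little signal. Of 12 further family members and pseudogenes listed, 11 were in the tables and 2 passed the filter, neither of which passed the edgeR test. MT1DP was the 1 with an unadjusted p under 0.05, and DESeq2 called 0. The transcribed pseudogene MT1L had 255 and 219 counts in shCtrl against 79 and 184 in shFOXK2 (log2 fold change −0.67, SE 0.34, edgeR adjusted p = 0.121). MT1DP, another transcribed pseudogene, had 15 and 13 counts against 4 and 6 (−1.24, SE 0.55, edgeR adjusted p = 0.0777). Each was lower in both shFOXK2 libraries, but 0 of the windows of either were unique, and with the gene models that overlap them on the same strand ignored 88.3% and 100% were. MT1XP1 had 6 and 6 against 6 and 15 counts, MT1JP 2, 0, 0 and 1, and MT1A, MT1B and MT3 a single count in 1 library each, while MT1H, MT1HL1, MT4 and MT1CP were at 0.

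Among 9 other genes of the SLC30A family, most of whose products move zinc out of the cytosol, 7 were tested, 1 rose and 2 fell. That is 42.9% called beside 48.4% of all tested genes, with a median log2 fold change of −0.33. SLC30A7, which loads zinc into the Golgi, rose by 0.99 (SE 0.33, edgeR adjusted p = 0.0239), while its 2 shCtrl libraries were themselves far apart, at 824 and 270 counts. SLC30A2, an exporter into vesicles, fell by 3.19 (SE 0.50, edgeR adjusted p = 0.000205), from 3.49 to 0.391 CPM. SLC30A3, the exporter of synaptic vesicles, fell by 1.23 (SE 0.40, edgeR adjusted p = 0.0206).

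Among 14 SLC39A genes, whose products bring zinc into the cytosol, 11 were tested, 2 rose and 5 fell, a called share of 63.6% beside 48.4% of all genes, with a median of −0.49. SLC39A4, the intestinal zinc importer, rose from 9.22 ± 1.94 to 20.7 ± 1.71 CPM (SD, n = 2), by 1.17 on the log2 scale (SE 0.30, edgeR adjusted p = 0.0054). SLC39A8, a zinc and manganese importer, rose by 0.87 (SE 0.30, edgeR adjusted p = 0.03). SLC39A14, a broad importer of zinc, iron and manganese, fell from 105 ± 1.66 to 48.4 ± 12.5 CPM (−1.12, SE 0.26, edgeR adjusted p = 0.00322), and SLC39A13 fell by 0.95 (SE 0.29, edgeR adjusted p = 0.0147).

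Of 11 copper genes, all tested, 2 fell and 9 did not pass, a called share of 18.2% beside 48.4% of all tested genes, with a median of −0.11. The copper ATPases ATP7B and ATP7A fell by 2.28 (SE 0.35, edgeR adjusted p = 0.00017) and 1.21 (SE 0.40, edgeR adjusted p = 0.0232). The uptake transporter SLC31A1 was at −0.11 (SE 0.24, edgeR adjusted p = 0.733), a value chosen for naming after it was seen.

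Of 8 genes outside the family that respond to metals and to oxidative stress, 2 rose and 2 fell, with a median of 0.26. The called share of 50% is about the 48.4% of all tested genes. SLC7A11, the cystine importer, rose by 2.17 (SE 0.46, edgeR adjusted p = 0.00166), with 1005 and 181 counts in shCtrl against 1623 and 2554 in shFOXK2. GCLM, a subunit of the enzyme that starts glutathione synthesis, rose by 1.15 (SE 0.28, edgeR adjusted p = 0.00397). HMOX1, which degrades heme and is strongly induced by cadmium, fell by 1.24 (SE 0.41, edgeR adjusted p = 0.0219), and the thioredoxin reductase TXNRD1 fell by 1.19 (SE 0.24, edgeR adjusted p = 0.00113).

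**Figure D5:**
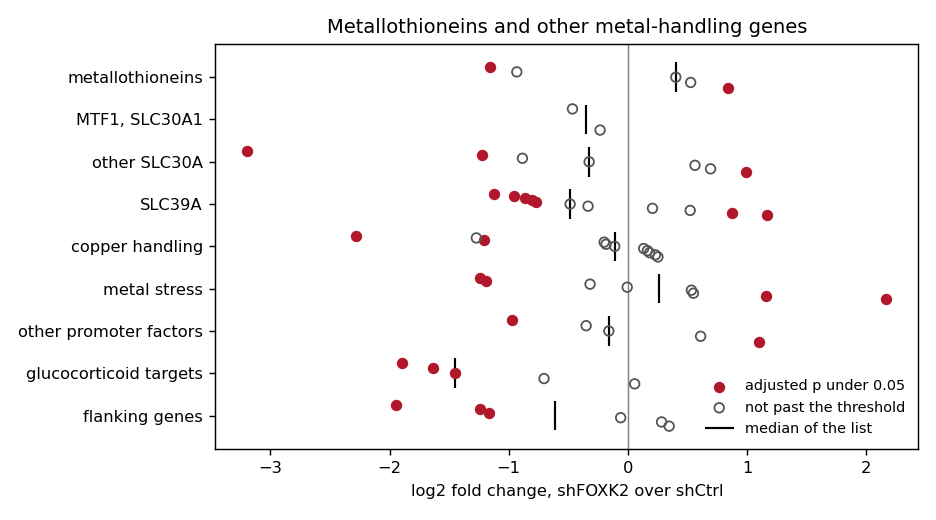
Log2 fold change, shFOXK2 over shCtrl, of the tested genes of each list, filled where the edgeR adjusted p was under 0.05, with a line at the list's median. The metallothioneins lie between −1.15 and 0.84 and the list medians between −1.45 and 0.40.

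Factors other than MTF1 that act on metallothionein promoters included 1 that rose and 1 that fell among 5, or 40% called beside 48.4% of all tested genes. NR3C1, the glucocorticoid receptor, rose by 1.10 (SE 0.33, edgeR adjusted p = 0.0135), from 1657 and 546 counts in shCtrl to 1834 and 1875 in shFOXK2. STAT3, which carries interleukin signals, fell by 0.97 (SE 0.23, edgeR adjusted p = 0.00323). USF1 (−0.16), USF2 (0.61) and SP1 (−0.35) missed the threshold, with edgeR adjusted p = 0.66, 0.0636 and 0.242. Of 6 glucocorticoid target genes 5 were tested, of which 3 fell and 2 did not pass, or 60% called beside 48.4% of all tested genes in either direction and 22.7% in this direction. Those that fell were SGK1, by 1.89 (SE 0.25, edgeR adjusted p = 6.92e-05), TSC22D3, by 1.64 (SE 0.30, edgeR adjusted p = 0.000609) and DUSP1, by 1.45 (SE 0.24, edgeR adjusted p = 0.000356).

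The genes on either side of the cluster on chromosome 16 gave 3 falls among 6 tested, with 3 that did not pass and a median of −0.61. That called share of 50% stood beside 48.4% of all tested genes in either direction and 22.7% in this direction. HERPUD1, which takes part in the degradation of endoplasmic reticulum proteins, fell by 1.95 (SE 0.25, edgeR adjusted p = 5.59e-05), and BBS2, a part of the complex that carries proteins to cilia, fell by 1.25 (SE 0.26, edgeR adjusted p = 0.00172). NUP93, the listed gene nearest to MT1X, was at 0.35 (SE 0.23, edgeR adjusted p = 0.237), a value chosen for naming after it was seen.

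Over the 4 libraries, the mean centred log2 CPM of the 5 tested metallothioneins was −0.13 and 0.22 in shCtrl and −0.28 and 0.20 in shFOXK2, so both libraries numbered 2 stood above both libraries numbered 1, and the groups overlapped. The genes nearest to that pattern by Euclidean distance, among 10157 genes, were PRDX5 (0.0542), EFNB1 (0.0571), EXOC3-AS1 (0.0576), MGMT (0.0728) and TMEM14B (0.0737). The mean averages metallothioneins with changes in opposite directions. Each of the 5 metallothioneins on its own had groups that did not overlap in CPM, so none of them showed this averaged pattern.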

How the data were processed

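RNA-seq of 4 OVCAR5 libraries was used, 2 for each group, with groups and replicate numbers from the sample titles. Per the study's methods and the submitters' processing notes, single-end reads of 50 bases were aligned to GRCh38 (hg38) with STAR 2.5.2 and assigned to genes with HTSeq. What the authors deposited are raw counts for each symbol, not normalized. The annotation and the strand setting were not given in the sources used here, and 0 rows lacked a gene name. HTSeq in its usual setting drops reads that match several places.

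Genes were filtered with filterByExpr, scaled by TMM and tested in edgeR 4.0.16 (R 4.3.3) with its two-sided quasi-likelihood F statistic, with Benjamini-Hochberg adjustment over 16417 genes and a threshold of 0.05. The SE was the absolute log2 fold change over the square root of F. CPM used TMM-scaled totals. Library totals ran from 14284005 to 21950873, and Wilson intervals (95%) and the floor of 3 counts cover counting error only, since PCR copies are not independent molecules. Nothing but the words biological duplicates describes the replicates, so the p-values measure the spread between these libraries.

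The 8 genes and all other lists, which came from general knowledge, were chosen with earlier results of these data known. Named are the 8 genes, FOXK2, the other metallothioneins and promoter factors, up to 4 called genes with the largest changes in each further list, and the 5 genes nearest to the metallothionein mean, among genes averaging 3 or more in log2 CPM. Markers were a check only. The values of 1 listed gene are not reported here. Positions, windows and coding sequences came from GENCODE v44 on hg38, and promoters from RefSeq. GC content, A content and length had values for 84.6% of tested genes and 81.9% of called genes. Alternatives were DESeq2 1.42.0, edgeR's exact test and glmTreat, other scalings and filters, offsets, a replicate block and leaving out each library. The fit was tested on simulated data.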

Additional observations from a re-analysis of the deposited data

How the results depend on the processing

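Of 91 values of the log2 fold changes under alternatives that keep all libraries, 76 kept direction and side of the threshold. With a test against a log2 fold change of 1 (glmTreat), MT1X (0.84) and MT1F (−1.15) were not called. With no filter MT1X was 0.74 and not called, and MT1M −1.03 and called. With the length offset MT1X was 0.33 and not called, and MT1M −1.47 and called. The GC offset, alone or with the replicate block, called MT2A (0.85 and 0.84), MT1E (0.77 and 0.77) and SLC30A1 (−0.77 and −0.76). The A-content offset called MT2A (0.89) and MT1E (0.77) and turned MTF1 to 0.0751. The cause was not tested.

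The members called higher and lower were thus 0 and 0 with glmTreat, 0 and 2 with no filter or the length offset, 3 and 2 with the GC offset, with or without the block, and 3 higher with the A-content offset, against 1 and 1. When each library was left out they ranged from 0 to 2 in each direction, and the log2 fold changes ranged from 0.63 to 0.96 for MT1X, −1.58 to −0.87 for MT1F, 0.29 to 0.68 for MT2A, −1.59 to −0.55 for MT1M and −0.95 to 0.0787 for SLC30A1.

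Calls in the other lists moved to 2 for other metallothioneins and 5 for zinc exporters (from 0 and 3) with the length offset, to 1 for copper genes (from 2) with library size alone, to 2 for metal stress genes (from 4) with the GC or A-content offset, and to 5 for flanking genes (from 3) with the GC offset, with or without the block. With glmTreat they were 1 for zinc exporters, copper, metal stress and flanking genes and 0 for zinc importers and promoter factors. Leaving out a library gave 0 to 1 for other metallothioneins, 2 to 5 for zinc exporters, 3 to 8 for zinc importers, 1 to 3 for copper genes and 1 to 2 for promoter factors.

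Over genes, the deviations of same-numbered libraries from their group means had a correlation of −0.11. With 2 libraries in a group the second pair only mirrors the first, so this value cannot decide whether the numbers pair the libraries. The replicate block called 7270 of all genes, against 7940 without it, and changed no call among the members. The crossed pairing, chosen after seeing the data, called 8350. Depth limits MT1G, at 1 count or under in each library. Unique windows of the 6 metallothioneins moved from 82.5% to 87.3% with the gene overlapping MT1X ignored, an alternative chosen after seeing the data.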
